A study of Mus musculus with 2 samples.

Results

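The cells described here are conventional and mature dendritic cells of the mouse dental pulp that carried no Cd209a transcript. Dental pulp is the soft tissue inside the tooth, and it was taken at postnatal day 12. A barcode entered the group with a unique molecular identifier (UMI, 1 captured transcript) of at least 2 of the 7 genes Flt3, Zbtb46, Xcr1, Clec9a, Ccr7, Fscn1 and Ccl22. It also needed at least 2 UMIs of the MHC class II gene H2-Eb1, none of Cd209a, fewer than 6 UMIs of C1qa, C1qb and C1qc together, and none of Cd79a, Cdh5, Sox10 or Notch3. The rule found 73 of 4012 kept cells (1.82%), 49 of 1683 in the Vegfr2 knockout library and 24 of 2329 in the control library.

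The study asked how pulp cells differ when endothelial cells lack Vegfr2, the VEGF receptor encoded by Kdr. The Vegfr2 knockout library came from C57BL/6 mice with an endothelial knockout, and the control library from C57BL/6 mice labelled control. Both hold P12 pulp cells sorted as negative for propidium iodide, a stain of dead cells, and prepared with the 10x Chromium 3' v3.1 kit. The Cre line, the deleted part of the gene, the sex and number of animals pooled, and littermate status are not given in the sources used here. With 1 library per genotype no difference has a replicate check, so no test was made, and every interval below is a 95% interval of counting error alone.

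The knockout library held 2563 barcodes and 17277162 UMIs, and the control library 3487 barcodes and 35918862 UMIs. Kept cells had a median of 8302 UMIs in knockout and 12224 in control. Gated cells had a median of 11049 UMIs in knockout (2117 to 32622) and 19656.5 in control (6878 to 58353). Xist was seen without a Y-linked transcript in 31 knockout and 18 control gated cells, and a Y-linked transcript without Xist in 13 and 5, so both libraries held cells of both sexes. The targeted gene Kdr had 0 UMIs in the 49 gated knockout cells and 3 UMIs, in 3 cells, in the 24 control cells. Among kept cells with a UMI of the endothelial gene Cdh5, Kdr reached 461 CPM (UMIs scaled to a common library total) in 167 knockout cells and 849 CPM in 475 control cells. A 3' read can lie outside the deleted part, so this level does not check the deletion.

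Conventional dendritic cells take up antigen, present it to T cells on MHC molecules and depend on the growth factor receptor FLT3. Type 1 cells (cDC1) carry XCR1 and CLEC9A, require the transcription factors IRF8 and BATF3 in the mouse, and specialise in presenting antigen from dead cells on MHC class I. Type 2 cells (cDC2) carry SIRPA and, in many tissues, myeloid lectins. After activation, mature cells switch on CCR7, which guides them to lymph nodes, with FSCN1, CCL22 and costimulatory molecules.

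Xcr1, Clec9a and Gcsam were among the 15 genes that most set the gated cells apart from other myeloid cells, and their promoters shared a motif. The motif is TTTC followed after 4 bases by TGA on either strand. It is a short form of the AP-1 and IRF composite element, which BATF and IRF proteins are known to bind together. No bases after TGA were required, so a match need not hold a full AP-1 site. Promoters are shown because they let the motif be seen beside the genes whose transcripts define the cells. Each run is the RefSeq sequence of the 250 bases before the gene's start, build GRCm38.p6, read 5′ to 3′ on the gene's strand, and capitals mark the motif.
Xcr1 (chr9:123862030-123862279, minus strand): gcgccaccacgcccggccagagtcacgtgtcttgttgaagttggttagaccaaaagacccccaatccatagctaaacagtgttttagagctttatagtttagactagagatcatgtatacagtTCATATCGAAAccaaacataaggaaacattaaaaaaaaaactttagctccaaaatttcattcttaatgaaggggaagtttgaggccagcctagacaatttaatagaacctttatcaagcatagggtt
Clec9a (chr6:129408612-129408861, plus strand): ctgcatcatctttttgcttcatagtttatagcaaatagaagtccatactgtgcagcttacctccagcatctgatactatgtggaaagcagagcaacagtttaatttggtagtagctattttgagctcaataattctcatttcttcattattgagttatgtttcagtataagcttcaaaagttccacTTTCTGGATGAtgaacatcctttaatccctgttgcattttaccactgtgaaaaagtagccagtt
Gcsam (chr16:45610190-45610439, plus strand): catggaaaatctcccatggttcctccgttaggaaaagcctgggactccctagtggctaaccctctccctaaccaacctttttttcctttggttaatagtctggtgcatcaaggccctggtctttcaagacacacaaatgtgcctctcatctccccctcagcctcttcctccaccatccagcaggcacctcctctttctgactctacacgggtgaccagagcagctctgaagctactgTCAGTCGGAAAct
The motif lay 116 bases before the start of Xcr1, 53 before Clec9a and 2 before Gcsam, on the gene's strand in Clec9a and on the other strand in Xcr1 and Gcsam. It was present in 3 of the 11 leading genes that had a RefSeq promoter, in 1 of 14 genes of the cDC1 list (Gcsam) and in 4.41% of all 27025 genes with a promoter. Of the 3, Xcr1 and Clec9a were used by the gate, so their place among the leading genes follows in part from the rule. A match is a stretch of letters and was not examined for binding. It was 1 of 5 motif forms searched in these windows. The ETS and IRF composite, GGAA followed after 2 bases by GAAA, was found in 0 of the 11 leading genes and 2.68% of all genes.

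The label was checked first. Of the 49 knockout cells, 38 were Xcr1-type (a UMI of Xcr1 or Clec9a and fewer than 2 of the genes Ccr7, Fscn1 and Ccl22). Of the 24 control cells, 19 were of this type. Another 2 knockout cells and 0 control cells were Ccr7-type, with at least 2 of Ccr7, Fscn1 and Ccl22, and 9 knockout and 5 control cells remained. The gated cells were therefore mostly cDC1 by marker genes, and the mature component of the label rested on 2 cells of the knockout library. These values follow from the rule and are given as a description.

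**Figure D1:**
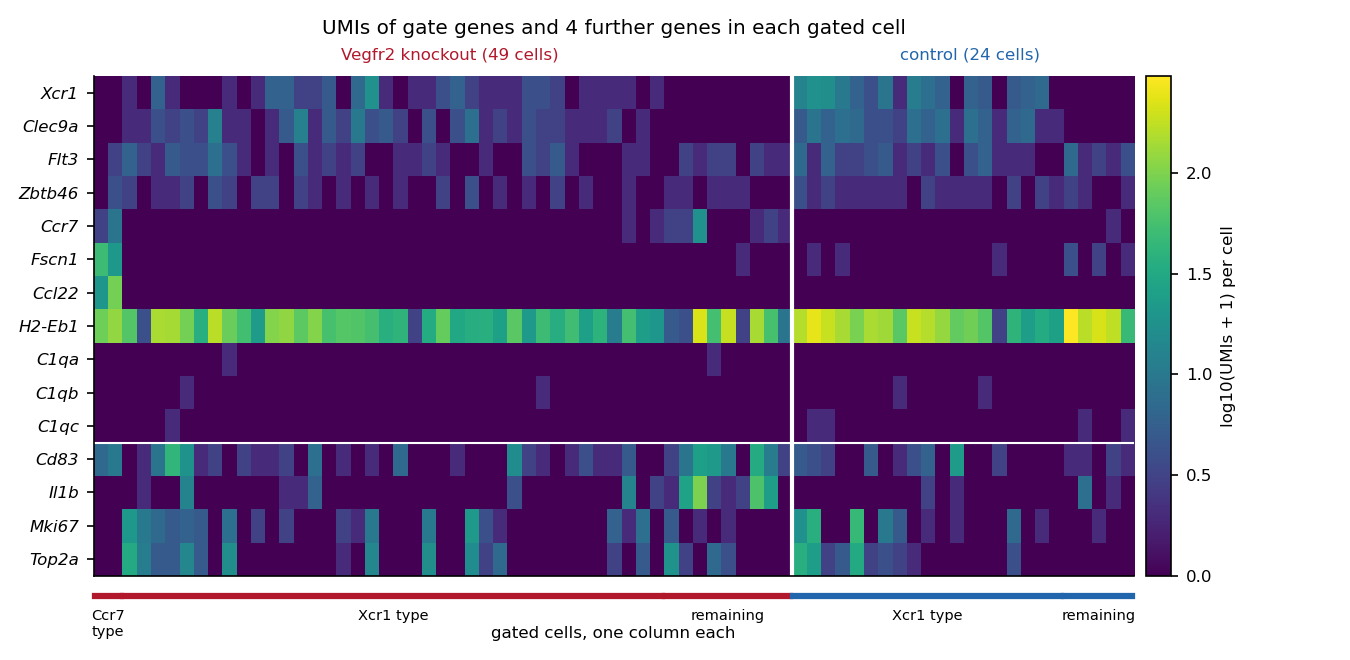
UMIs of the genes used by the gate (above the white line) and of 4 further genes in each gated cell, as log10(UMIs + 1), with 1 column per cell and the cells grouped by type. Xcr1 and Clec9a fill the Xcr1-type cells of both libraries, Ccl22 marks 2 knockout cells, and Ccr7 and Il1b cluster in the remaining knockout cells.

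Xcr1, the receptor for XCL1, had a median of 1 UMI (0 to 17) in gated knockout cells and 4.5 (0 to 17) in control cells. Clec9a, a receptor for dead-cell actin, had a median of 1 (0 to 11) in knockout and 3.5 (0 to 8) in control. Flt3 had a UMI in 34 of 49 knockout and 21 of 24 control cells, and Zbtb46, a factor of the conventional dendritic lineage, in 26 and 19. The libraries overlapped for each of these genes. Free RNA was gauged in glia (Sox10-positive, Ptprc-negative kept cells, 337 in knockout and 432 in control, with medians of 8987 and 12596 UMIs). Clec9a was seen in 1 of the 337 knockout glia (0.297%) and in 0 of the 432 control glia, which allows a share of up to 0.694%. Fscn1, an actin-bundling protein, was present in 57.9% of knockout and 62.0% of control glia. It was seen in a smaller share of gated cells, 3 of 49 in knockout and 6 of 24 in control. The glia share of Fscn1 therefore does not gauge free RNA, and the source of single Fscn1 UMIs in gated cells was not tested.

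Members near the rule's limits were as follows. Exactly 2 of the 7 marker genes were seen in 22 knockout and 5 control gated cells, and 21 knockout and 28 control barcodes met every other condition with exactly 1. A further 56 knockout and 72 control cells met all conditions except the absence of Cd209a, 5 and 4 of them with exactly 1 Cd209a UMI. Above the mitochondrial limit of 10% lay 20 knockout and 14 control barcodes that passed otherwise. Only a UMI of Cd79a, Cdh5, Sox10 or Notch3 kept out 14 knockout and 24 control cells. Fewer than 2 UMIs of H2-Eb1 alone kept out 7 and 7. The control cells were sequenced deeper, and no alternative below dropped either condition, so their effect on the ratio of shares was not tested. No barcode shared by the libraries (3 in all) was gated.

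Gated cells made up 2.91% of kept cells in the knockout library (exact binomial interval 2.16 to 3.83) and 1.03% in the control library (0.661 to 1.53). The ratio of shares was 2.83 (1.70 to 4.81). The ratio was 2.77 (1.56 to 5.08) for Xcr1-type cells, at 2.26% of knockout and 0.816% of control kept cells. Among kept cells with a UMI of the leukocyte gene Ptprc, gated cells were 43 of 624 in knockout (6.89%) and 23 of 653 in control (3.52%), a ratio of 1.96 (1.15 to 3.40). Counted within leukocytes, the ratio was nearer to 1. Ly6c2 monocytes had a ratio of 2.80 (1.96 to 4.04), with 5.76% of knockout and 2.06% of control kept cells. Of monocyte genes this group required only Ly6c2, at 2 UMIs or more. The monocyte marker Ccr2 had 840 CPM in its knockout cells and 1089 CPM in its control cells. The plasmacytoid marker Ly6d had 121 and 74.0 CPM there, so the group may not hold monocytes alone. Cd209a cells had 1.22 (0.9997 to 1.49) and C1q macrophages 1.16 (0.839 to 1.60). Whether fewer cells of other types or more dendritic cells were captured cannot be told apart from shares.

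**Figure D2:**
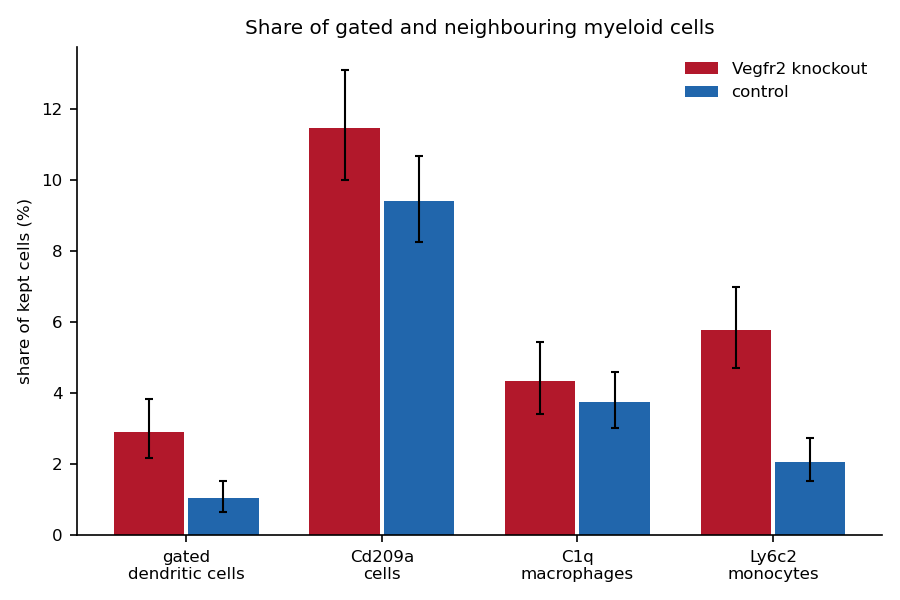
Share of kept cells (%) that fell in the gate and in each neighbouring myeloid group, knockout left and control right, with exact binomial 95% intervals. The intervals of knockout and control do not overlap for the gated cells (2.91% and 1.03%) and Ly6c2 monocytes (5.76% and 2.06%), and they overlap for Cd209a cells and C1q macrophages.

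The ratio of shares moved with the Cd209a condition. Without it the ratio was 1.51, from 105 knockout and 96 control cells. When each cell was thinned to 2000 UMIs before the gate, 20 draws gave 10 to 18 knockout and 5 to 12 control cells, with ratios of 1.20 to 4.33 and a median of 2.81. Within the gate, Xcr1-type cells were 77.6% of gated knockout and 79.2% of gated control cells (ratio 0.980, 0.551 to 1.80). That interval holds 1 and allows a sizeable difference either way. The 2 Ccr7-type knockout cells (0.119% of kept cells) stood beside 0 of 2329 control cells, and no fold is given.

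Genes that set the gated cells apart were ranked by the smaller log2 ratio, over both libraries, to the highest of Cd209a cells, C1q macrophages and Ly6c2 monocytes. The gate chose these cells, so the ranking is a description. Snx22, a sorting nexin, led with 85.0 CPM in knockout and 63.7 CPM in control gated cells, and its highest neighbour had 2.30 and 1.54 CPM. Gcsam, a signalling adaptor, followed, then Xcr1 and Clec9a, which the gate used. Next came A530099J19Rik, Itgae (the integrin CD103), the interferon-inducible Ifi205, AC163354.1, Cd200 (ligand of an inhibitory receptor), Sept3, Tlr3, P2ry14 (a receptor for UDP-sugars), Naaa, Wdfy4 and Rtl8a. Naaa, a lysosomal amidase, was the most abundant of these in UMIs, at 861 CPM in knockout and 1181 CPM in control. Cd209a cells had 122 and 166 CPM of it.

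**Figure D3:**
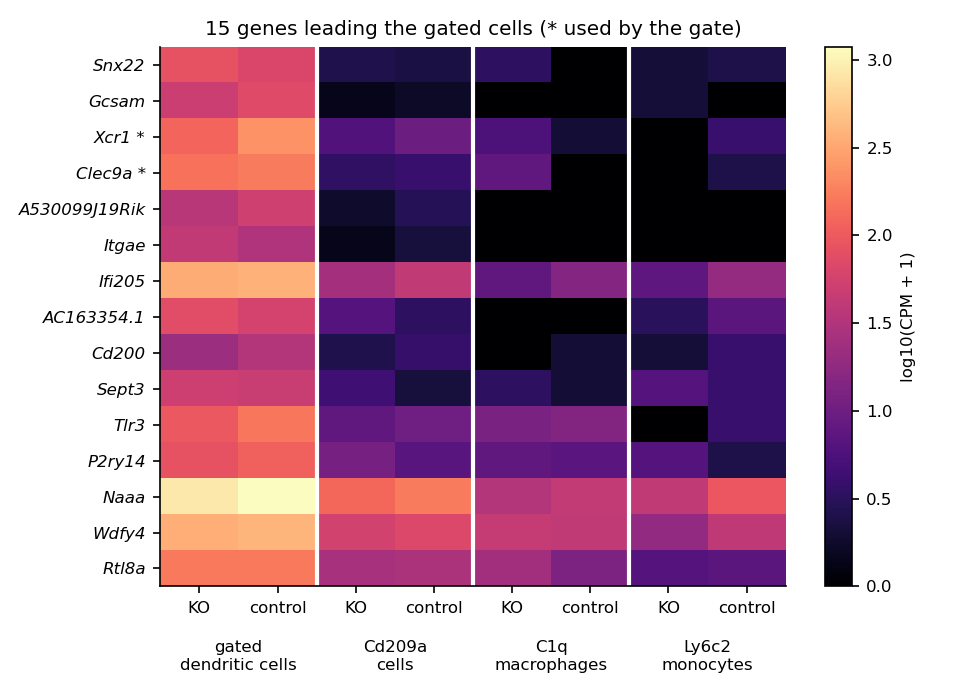
CPM on a log10(CPM + 1) colour scale of the 15 genes that lead the gated cells, in 4 myeloid groups, with knockout (KO) left of control in each. All 15 rows are brightest in the 2 gated columns, and Naaa, Wdfy4 and Ifi205 keep some signal in the neighbours.

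Of 20 genes of the cDC1 list with at least 20 CPM in some group, 18 were highest in gated cells in both libraries, against 11.0% of all 8011 genes at that level. The same held for 1 of 17 cDC2 genes, 4 of 28 maturation genes, 2 of 15 MHC class II genes and 8 of 24 genes of MHC class I and cross-presentation. It held for 0 of 9 plasmacytoid, 0 of 16 macrophage and 0 of 9 monocyte markers.

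The 3 types of gated cell differed in more than the genes that split them. Irf8, the cDC1 lineage factor, had 1744 CPM in Xcr1-type and 188 CPM in remaining knockout cells. In control it had 1657 CPM in Xcr1-type cells and 0 UMIs in the 5 remaining cells. Naaa, Ppt1, Tlr3, Gcsam, Snx22 and the adhesion molecule Cadm1 followed the same split. Some of the remaining cells carried cDC2 genes. Sirpa, an inhibitory receptor, was seen in 4 of 9 knockout and 5 of 5 control cells, and Mgl2, a lectin, in 2 and 3. Of the 9 knockout cells, 1 also held 159 UMIs of T or NK markers and another 301 of mesenchyme markers. They also led in Ccrl2, a chemerin-binding receptor, and Il1r2, the decoy receptor for interleukin 1. Ccrl2 had 235 CPM in remaining and 7.90 CPM in Xcr1-type knockout cells, and 283 CPM in remaining control cells with 0 UMIs in control Xcr1-type cells.

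The 2 Ccr7-type knockout cells held 90 and 19 UMIs of Ccl22, and 21 and 9 of Ccl17, both ligands of CCR4. Fscn1 had 20 and 49 UMIs in them, Ccr7 8 and 2, and Ccl5, a T cell attractant, 61 and 2. They shared Il4i1, an amino acid oxidase, Aldh1a2, which makes retinoic acid, H2-M2, Mreg and Tnfrsf4 (OX40). Neither held a UMI of Xcr1, Clec9a, Mki67 or Top2a. Outside these cells Ccr7 was seen in 8 knockout cells, 6 of them of the remaining type, and in 1 control cell.

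Against that composition, UMIs were summed over the gated cells of each library, 658442 in knockout and 501980 in control. Of 4507 genes with at least 30 UMIs in all, 14.1% were higher in knockout by 1.5-fold or more and 10.1% lower. From these, the 12 with the highest lower bound of the knockout over control ratio and the 12 with the lowest upper bound were named. They were required to be seen in at least 8 cells, with no cell giving more than 30% of the UMIs. The ratios select the genes, so they carry no further weight as evidence.

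Cd83, a surface marker of dendritic cell activation, had a median of 1 UMI (0 to 42) in knockout cells and 1 (0 to 22) in control cells, so the single-cell values overlapped. In CPM it stood at 374 in knockout and 102 in control, a ratio of 3.68 (2.71 to 5.07). The highest control cell gave 22 of 51 UMIs. Samsn1, an inhibitory adaptor, had 99 UMIs in 22 knockout cells and 9 in 4 control cells, a ratio of 8.39 (4.24 to 18.9). Gadd45b, a stress and NF-kB target, had 144 and 20 UMIs, with a ratio of 5.49 (3.43 to 9.25). Bhlhe40, a transcriptional repressor, had 97 and 10 (ratio 7.40, 3.85 to 15.9). Dusp5, a phosphatase of ERK, had 69 and 4 (13.2, 4.91 to 49.6). Vps37b, a subunit of the ESCRT-I sorting complex, and Plaur, the urokinase receptor, were higher at 11.2 (5.52 to 26.7) and 13.2 (4.28 to 66.2). For Plaur 52 knockout UMIs came from 10 cells and 3 control UMIs from 3 cells. All 7 genes were also higher in the other kept cells of the knockout library, with ratios of 3.14 for Cd83, 2.66 for Samsn1, 1.71 for Gadd45b, 1.71 for Bhlhe40, 3.83 for Dusp5, 2.89 for Vps37b and 5.15 for Plaur. Within Xcr1-type cells alone the gated ratios were 2.22 (1.57 to 3.19) for Cd83, 2.51 (1.09 to 6.47) for Samsn1, 2.41 (1.04 to 6.23) for Vps37b and 4.19 (0.47 to 198) for Plaur. They were 6.70 (2.03 to 34.8) for Gadd45b, 6.53 (2.57 to 21.2) for Bhlhe40 and 30.2 (5.08 to 1224) for Dusp5. With Cd209a-positive cells let into the gate, Gadd45b came to 1.13, under the 1.5-fold limit, Bhlhe40 to 1.55, Cd83 to 2.46, Samsn1 to 2.49, Dusp5 to 3.88, Vps37b to 4.38 and Plaur to 6.06. Among cells with a Y-linked UMI Cd83 came to 0.77 and Gadd45b to 28.8.

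The other 5 genes were higher in the other kept cells as well. Gstp1, a glutathione transferase, had 43 UMIs in 23 gated knockout cells and 0 in control, at least 10.9-fold higher against a floor of 3 UMIs over the control sum. That floor leaves out the error of the 43 UMIs, and the 95% lower limit of the ratio was 8.51. In all other kept cells it had 85.2 CPM in knockout and 5.19 CPM in control, a ratio of 16.4. Gm10076, a predicted gene, had ratios of 10.8 in gated and 8.05 in other cells. Eno1, a glycolytic enzyme, Impact, a regulator of translation, and Erh had gated ratios of 7.32, 7.37 and 4.47, with 2.74, 2.71 and 2.55 in the other cells. Gstp1 and Eno1 have near copies that can share reads, and Gstp2 had 0 UMIs and Eno1b 2 in knockout gated cells with 0 of each in control. The software that made the matrices also differed between the genotypes, and genotype and software cannot be told apart.

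Among the lower genes, Ppt1, a lysosomal thioesterase abundant in cDC1, had a median of 4 UMIs (0 to 20) in knockout and 12.5 (0 to 67) in control. It stood at 336 CPM in knockout and 657 CPM in control (0.51, 0.43 to 0.61), against 0.96 in the other cells. H2-Ab1, the beta chain of an MHC class II molecule, had 4555 CPM in knockout and 7377 CPM in control (0.62, 0.59 to 0.65). Csf2ra, the GM-CSF receptor alpha chain, had 79.0 and 167 CPM (0.47, 0.33 to 0.67). Cd36, a scavenger receptor, had 25.8 and 89.6 CPM (0.29, 0.15 to 0.51). Tnfaip8l2, a brake on immune signalling, was lower at 0.41 (0.27 to 0.62), and Cdk14, a cyclin-dependent kinase, at 0.45 (0.30 to 0.67). In the other cells these last 4 had ratios of 1.15, 1.27, 1.04 and 0.94, and in Cd209a cells 0.87, 1.55, 0.64 and 0.80. The intervals in Cd209a cells lay below 1 for Tnfaip8l2 (0.53 to 0.76), Csf2ra (0.77 to 0.99) and Cdk14 (0.64 to 0.99). The interval of Cd36 held 1 (0.65 to 3.68). Ppt1 and H2-Ab1 were lower in Cd209a cells too, at 0.82 (0.68 to 0.995) and 0.79 (0.78 to 0.81). In C1q macrophages Csf2ra had 0.71 (0.50 to 0.99) and H2-Ab1 0.25 (0.22 to 0.29), while Ppt1 had 1.40 and Cdk14 2.21. Arhgap22, H2-Ke6 and Ifi27l2a completed the set with Wdr89, Emc3 and AY036118. The first 3 had ratios from 0.91 to 1.04 in the other cells, while Wdr89, Emc3 and AY036118 were also lower there (0.50, 0.65 and 0.18). Ifi27l2a was lower in Cd209a cells, at 0.50 (0.46 to 0.54), and in Ly6c2 monocytes, at 0.72 (0.64 to 0.82). Ifi27l2a came to 0.91 (0.56 to 1.47) within Xcr1-type cells.

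**Figure D4:**
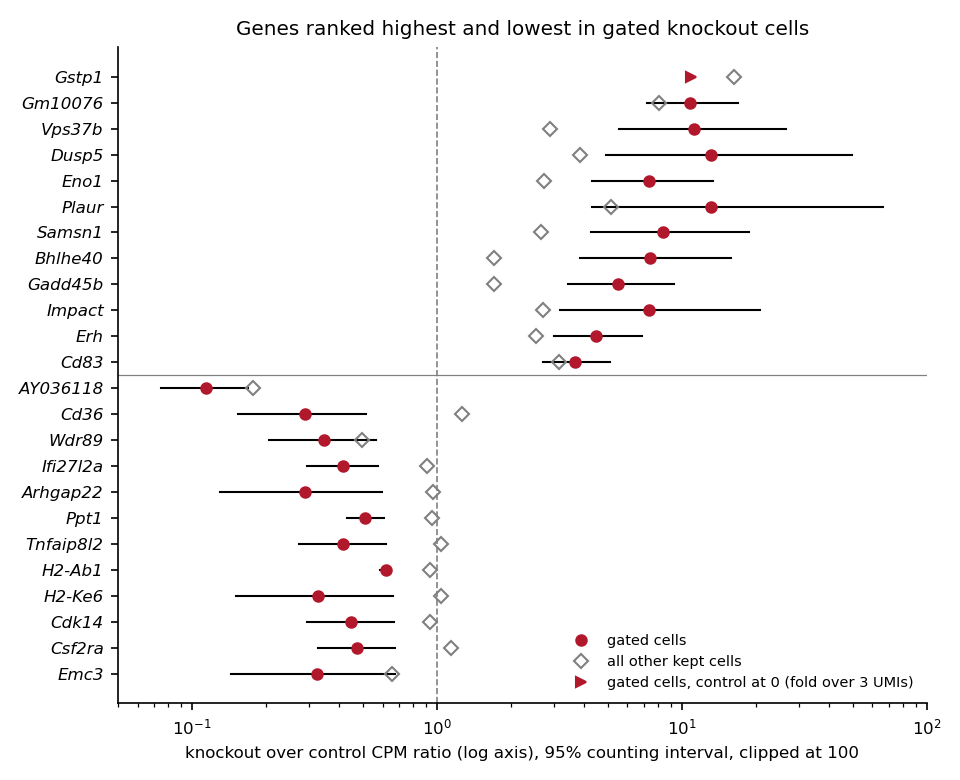
Knockout over control CPM ratio on a log axis for the 12 genes ranked highest and the 12 ranked lowest in gated cells, with 95% counting intervals, beside the ratio in all other kept cells (grey diamonds). Cd36, Ppt1, H2-Ke6 and Csf2ra are low in gated cells with diamonds near or above 1, whereas the diamonds of Gstp1, Gm10076 and AY036118 lie with the gated value.

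Lists were read against all 5909 genes with at least 20 UMIs in gated cells, of which 16.4% were higher by 1.5-fold or more and 12.7% lower, with a median log2 ratio of 0.02. Of 19 measured maturation genes 13 were higher and 0 lower, with a median of 1.28, and 0.25 in the other kept cells. This summary rested on the 2 Ccr7-type cells. Without them 14 genes were measured, 6 higher and 1 lower, with a median of 0.31. That setting still held 6 remaining and 2 Xcr1-type knockout cells with a Ccr7 UMI. Cd86, a costimulatory ligand of CD28, had 49 UMIs in knockout and 39 in control (ratio 0.96, 0.62 to 1.498). Cd40 had only 6 and 2 UMIs. Tmem123 and Marcksl1, known from mature dendritic cells, had ratios of 3.77 (2.22 to 6.77) and 2.43 (1.56 to 3.89). The 2 Ccr7-type cells held 41 of 84 Tmem123 and 26 of 86 Marcksl1 knockout UMIs. Within Xcr1-type cells the ratios were 1.68 (0.83 to 3.55) and 1.54 (0.73 to 3.40), intervals that hold 1.

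Of 17 measured genes of the NF-kB pathway, the route by which activating receptors act on transcription, 11 were higher and 1 lower, with a median log2 ratio of 0.71 and 0.34 in the other cells. Without the Ccr7-type cells the counts were 8 and 1 and the median 0.58, and within Xcr1-type cells alone 6 and 2 of 14, with 0.40. Both settings still held knockout cells with a UMI of the gate gene Ccr7. The first kept 6 remaining and 2 Xcr1-type cells with it, and the second the 2 Xcr1-type cells. Some of these passed the gate only through Ccr7, so neither setting frees the list from the rule. Nfkbia, the inhibitor that NF-kB itself induces, had a median of 2 UMIs (0 to 74) in knockout cells and 1 (0 to 34) in control cells. It stood at 614 CPM in knockout and 221 CPM in control, a ratio of 2.77 (2.24 to 3.46) with 1.47 in the other cells. Rel, a subunit, had 2.29 (1.72 to 3.08), and Traf1, an adaptor of TNF receptors, 2.29 (1.63 to 3.27). The 10 knockout cells with a UMI of the gate gene Ccr7 held 123 of 195 Rel and 103 of 138 Traf1 UMIs. The other 39 knockout cells held 72 Rel and 35 Traf1 UMIs of 544524 in all. Control cells without Ccr7, 23 in number, held 45 and 32 of 486776. Rela, another subunit, had 17 and 20 UMIs (0.65, 0.32 to 1.30). When Cd209a-positive cells were let into the gate, Nfkbia came to 0.87.

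The Nfkbia promoter is shown since it carries a kappaB site as letters, again the 250 bases before the start on GRCm38.p6 from RefSeq, with the site in capitals.
Nfkbia (chr12:55492648-55492897, minus strand): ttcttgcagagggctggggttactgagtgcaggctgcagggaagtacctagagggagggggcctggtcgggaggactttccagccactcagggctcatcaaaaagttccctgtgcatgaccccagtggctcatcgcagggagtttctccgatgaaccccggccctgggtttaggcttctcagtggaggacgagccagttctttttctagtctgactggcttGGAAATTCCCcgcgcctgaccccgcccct
The kappaB consensus was found on either strand in 6 of 17 genes of the pathway list with a promoter (Nfkb2, Rel, Nfkbia, Nfkbie, Tnfaip3 and Tnip1) and in 4.46% of all genes. Of the 12 higher genes named above, 7 had a promoter to search, and 0 of these held it. Cd83, Vps37b, Bhlhe40, Impact and Gm10076 had none, so they were not searched. Of the 12 lower genes, 10 had a promoter, and 0 of these held it as well. A looser form, GGG followed after 5 bases by CC, was in 11 of the 17 pathway genes and 48.7% of all genes. The Nfkbia match ended 19 bases before the start. Tnfaip3 and Tnip1, which also held the consensus, had ratios of 1.14 (0.66 to 2.004) and 1.27 (0.42 to 4.25).

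Several activation genes sat mostly in few cells, by a split that uses the gate gene Ccr7. The 10 knockout cells with a Ccr7 UMI held 222 of 250 Il1b UMIs, 247 of 404 Nfkbia UMIs, 111 of 144 Gadd45b UMIs and 69 of 70 Ptgs2 UMIs. The other 39 knockout cells held 28, 157, 33 and 1. Cd83 was spread differently, with 98 of its 246 UMIs in the 10 cells and 148, over 24 cells, in the other 39. Of 99 Samsn1 UMIs, 63 lay in the 10 cells. Knockout cells with 98, 60 and 23 Il1b UMIs had exactly 2 gate markers, 1 of them Ccr7, and passed the gate only through Ccr7. The 1 control cell with a Ccr7 UMI passed in the same way. Ratios of Il1b, Nfkbia, Gadd45b, Samsn1, Rel and Traf1 rest in part on cells with a Ccr7 UMI, so they follow in part from the rule and are given as a description. Il1b, the proinflammatory cytokine, had 98 UMIs in a single knockout cell and 60 in the next, with at most 7 in a control cell. Its ratio was 17.3 (9.52 to 35.2), and 3.13 in the other cells. Over the alternatives it ran from 2.63, with Cd209a-positive cells let into the gate, to 52.1, at a mitochondrial limit of 5%. In glia, where the gene should be absent, 6.23% of knockout and 1.16% of control cells had an Il1b UMI, against 32.7% and 16.7% of gated cells. Ptgs2, the inducible prostaglandin synthase, came mainly from cells with 37 and 30 UMIs and was at 0 in control.

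Cytokine transcripts were otherwise scarce. Il6, Il10, Il12b, Il23a and Il27 had 0 UMIs in both libraries. Il12b, a subunit of IL-12 made by activated cDC1, was thus not detectable in 658442 knockout and 501980 control UMIs. Ccl3 and Ccl4, macrophage inflammatory chemokines, had ratios of 0.41 (0.25 to 0.68) and 0.76 (0.59 to 0.96), but 1 control cell held 45 of 48 Ccl3 UMIs and 97 of 139 Ccl4 UMIs. Without the top cell, Ccl3 came to 6.41. Of the receptors, Csf2rb, the common beta chain, was higher at 1.71 (1.09 to 2.75) while Csf2ra was lower.

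**Figure D5:**
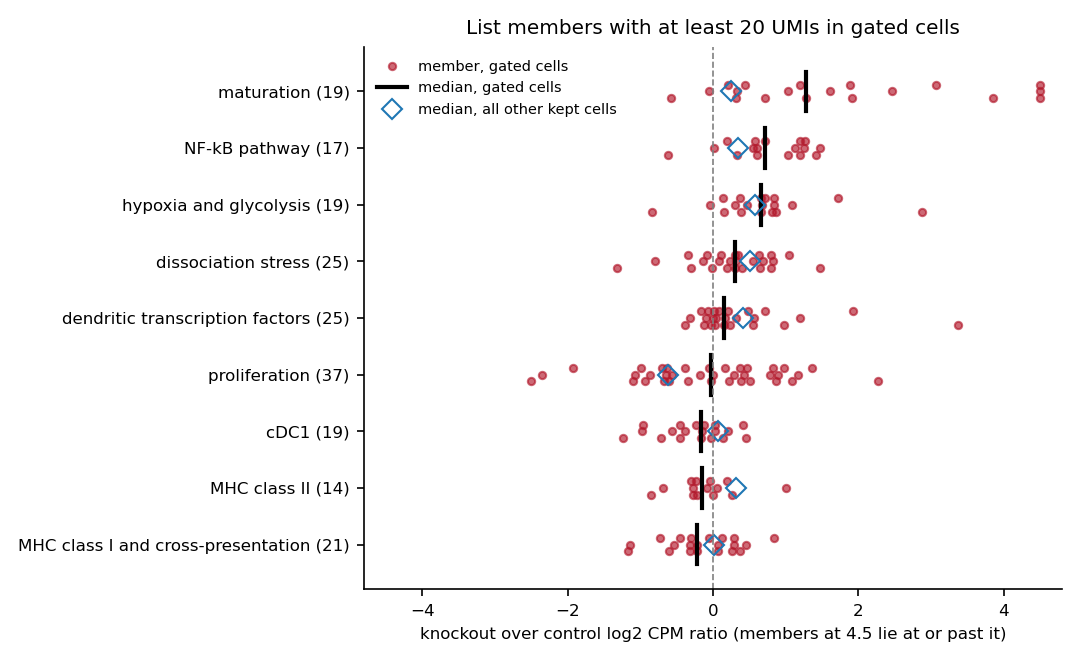
Knockout over control log2 CPM ratio of each list member with at least 20 UMIs in gated cells (points), with the list median (black bar) and the median in all other kept cells (blue diamonds). Maturation and NF-kB genes lie to the right, MHC and cDC1 genes scatter around 0, and the proliferation list spreads to both sides.

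Genes of cDC1 identity were close to even in the median, but those past 1.5-fold were all lower in gated knockout cells. Of 19 measured, 0 were higher and 4 lower, and 6 had a ratio above 1. The median log2 ratio was -0.16 (0.07 in the other cells) and 0.00 within Xcr1-type cells. The gate gene Xcr1 had 120 CPM in knockout and 233 CPM in control gated cells. Naaa had a ratio of 0.73, and 0.80 (0.71 to 0.90) within Xcr1-type cells, and Ppt1 0.51. Irf8 had a median of 16 UMIs (0 to 57) in knockout and 25 (0 to 120) in control cells, and the CPM ratio was 0.98 (0.89 to 1.09). Batf3 had 0.89 (0.64 to 1.25), Id2, a factor required by dendritic cells, 1.01 (0.90 to 1.14), and Wdfy4, needed for cross-presentation in mouse cDC1, 0.90 (0.74 to 1.09). The double-stranded RNA sensor Tlr3 was lower at 0.61 (0.43 to 0.86), with 0.53 in the other cells and 1.05 among gated cells with a Y-linked UMI. Plpp1, a lipid phosphatase, and Fgd6, a guanine nucleotide exchange factor, were at 0.42 (0.21 to 0.83) and 0.51 (0.22 to 1.12).

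Antigen presentation on MHC class II split by gene. Cd74, the invariant chain, had a ratio of 1.04 (1.01 to 1.07), and H2-Aa, the alpha chain that pairs with H2-Ab1, 1.00 (0.96 to 1.05). H2-Ab1 itself was at 0.62. The same order held in Cd209a cells, with 0.79 for H2-Ab1 and 1.21 for H2-Aa, and in all other kept cells, with 0.94 and 1.43. In UMIs, gated knockout cells held 2999 of H2-Ab1 and 4680 of H2-Aa, and control cells 3703 and 3562. March1, a ligase that removes MHC class II from the surface, was lower at 0.55 (0.40 to 0.77), and Lgmn, a lysosomal protease, higher at 2.01 (1.21 to 3.45). Of 14 measured genes of the class II list, 1 was higher and 2 lower.

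On the MHC class I side 1 of 21 genes was higher and 4 lower, with a median of -0.22 and 0.01 in the other cells. B2m, the light chain, had 0.96 (0.83 to 1.11), and the peptide transporter genes Tap1 and Tap2 had 1.08 (0.79 to 1.49) and 1.29 (0.93 to 1.81). Sec22b, a trafficking SNARE, had 0.44 (0.21 to 0.90) on 14 and 24 UMIs. Calr, a chaperone of class I loading, had 0.69 (0.58 to 0.82) and 0.64 in the other cells.

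Proliferation genes went both ways, and the division below was chosen after the values were seen. Of 37 measured, 9 were higher and 13 lower, with 0 and 22 in the other kept cells, where 10.6% of 15481 genes were higher and 10.5% lower. All 9 higher genes were among 12 of DNA replication, which summed to 1464 CPM in knockout and 759 CPM in control. Rrm2, a subunit of ribonucleotide reductase, led at 4.83 (2.61 to 9.75), and Pclaf, a partner of PCNA, had 2.26 (1.73 to 2.97). Of 15 genes of mitosis 11 were lower, and the sum was 1169 CPM in knockout and 1859 CPM in control. Ccnb1 and Ccnb2, the mitotic cyclins, had 0.18 (0.06 to 0.44) and 0.20 (0.09 to 0.40). In the other cells the replication genes went the opposite way, lower in knockout, at 346 and 559 CPM. The mitosis genes were lower in knockout there too, at 603 and 883 CPM. Few gated cells carried the gated sums, since 3 control cells held 80.8% of control mitosis UMIs and 3 knockout cells 38.7%. For replication 3 knockout cells held 46.4% and 3 control cells 58.5%, and 1 knockout cell held 207 of 964 UMIs. Rrm2 and Pclaf had 24 of 76 and 57 of 225 knockout UMIs in 1 cell. That cell also held all 7 UMIs of the plasmacytoid marker Siglech. With each cell counted equally 5 mitosis genes were lower and 2 higher, and the 7 replication genes past 1.5-fold were all higher. The share of gated cells with a Mki67 UMI was 22 of 49 in knockout and 10 of 24 in control, a ratio of 1.08 (0.49 to 2.55). At 2000 UMIs per cell it was 14 of 49 and 4 of 24, a ratio of 1.71 (0.54 to 7.15).

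Of 19 genes of hypoxia and glycolysis 11 were higher and 1 lower, with a median of 0.66 and 0.58 in the other cells. Aldoa, a glycolytic enzyme, had 2.12 (1.57 to 2.90) in gated cells and 1.91 in the others. Of 25 genes of dissociation stress 8 were higher and 2 lower, with medians of 0.30 and 0.50. Jun, an AP-1 subunit, was lower at 0.40 (0.32 to 0.49) with 1.15 in the other cells, and 1 control cell held 101 of its 258 UMIs. Junb, its relative, was higher at 1.74 (1.503 to 2.02) and had the same ratio, 1.74, in the other cells. Per cell, the dissociation list held 6 to 960 UMIs in knockout and 18 to 922 in control, and its part in the activation genes was not tested. Oxidative phosphorylation genes were 2 higher and 1 lower of 30, with a median of -0.09.

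Markers of other cell types were low in most gated cells but not in all. In knockout 4 cells and in control 2 cells carried at least 20 UMIs of a T or NK, glia or mesenchyme list. A knockout cell of the remaining type held 79 UMIs of the granzyme gene Gzma, and a control cell 139 of the collagen gene Col1a1. The T or NK list ran from 0 to 159 UMIs per cell in knockout and 0 to 9 in control, the mesenchyme list from 0 to 301 and 0 to 392, and the glia list from 0 to 224 and 0 to 10. For these lists 3, 8 and 4 members reached 20 UMIs, of 16, 9 and 9. For comparison, the endothelial list ran from 0 to 5 and 0 to 2, with the defining genes Sox10 and Cdh5 at 0 by the rule. Scrublet, a doublet caller, called 1 gated knockout and 0 gated control cells. Leaving out the 6 cells brought the ratio of Nfkbia to 2.17.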

How the data were processed

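Single-cell 3' RNA-seq of dental pulp was deposited as 1 filtered matrix per genotype, with 31053 genes each. The deposited values are raw UMI counts per gene and barcode, not normalised by the authors. Per the file headers, the knockout matrix was written by Cell Ranger 6.0.1 and the control matrix by Cell Ranger 5.0.0. The submitters' processing notes name version 6.0.1 and the build mm10.

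A barcode was kept if it had 500 genes or more, 1000 UMIs or more, and mitochondrial UMIs not above 10%. The gate was then applied. Counts were summed over gated cells and scaled to CPM. Each knockout over control ratio has a 95% interval from the exact conditional test of 2 counts, and each share a Clopper-Pearson interval. They cover counting error only. A fold against 0 uses a floor of 3 UMIs. Lists were read at 1.5-fold over members with at least 20 UMIs. Named genes followed a rule of counts, cells and interval bounds given with them. Mitochondrial, ribosomal, haemoglobin, sex-linked and gate genes were left out of it. The self-written code was tested on simulated data. Neighbouring myeloid groups were defined by Cd209a, by C1q genes and by Ly6c2. Doublets were called with Scrublet in scanpy 1.11.5 and not removed, since 4 knockout and 20 control barcodes were called. Work used Python 3.11.15, numpy 2.4.6, scipy 1.17.1 and pandas 2.3.3. RefSeq promoters (GRCm38.p6) were searched on both strands for 5 motif forms, 3 of them kappaB forms. The members and lists were chosen with earlier results of these data known.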

Additional observations from a re-analysis of the deposited data

How the results depend on the processing

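No paired analysis was possible because each genotype has 1 library and no test was made. The share ratio of gated cells ran from 1.51 to 3.61 over 11 alternatives and left its counting interval in 1, with Cd209a not used (1.51). The ratio for Ccr7-type cells could not be formed, with 0 control cells. Of the alternatives for ratios of single genes 741 lay within the counting interval, 123 moved and 4 changed direction. These 4 were Cd83 among cells with a Y-linked UMI (0.77), Tlr3 in the same cells (1.05), Nfkbia with Cd209a not used (0.87) and Ccl3 without its top cell (6.41). Alternatives with fewer than 20 UMIs of a gene gave no value.

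The median log2 ratio of the cDC1 list was -0.45 at a mitochondrial limit of 5%, -0.00552 with at least 3 gate markers, 0.19 with Cd209a not used, -0.56 in Xist-positive cells, 0.0872 in cells with a Y-linked UMI and 0.00226 in Xcr1-type cells. Maturation gave 0.63 with Cd209a not used, 0.53 in cells with a Y-linked UMI, 0.31 without Ccr7-type cells and 0.43 in Xcr1-type cells. MHC class I gave 0.17 in cells with a Y-linked UMI, 0.88 after thinning to 2000 UMIs with 5 members, and 0.068 with no minimum beyond 1 UMI in each library. The NF-kB list gave 1.24 at a mitochondrial limit of 5%, 0.17 with Cd209a not used, 1.23 in cells with a Y-linked UMI, 1.59 after thinning with 4 members and 0.40 in Xcr1-type cells. Plasmacytoid markers gave -0.30 with at least 3 gate markers, and T or NK markers -1.98 with no minimum beyond 1 UMI in each library (otherwise 2.24 and, at the bound of 3 UMIs, 2.72). The cause was not tested. The restriction to Xcr1-type cells and the removal of cells with other-lineage UMIs were chosen after seeing the data.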

Other observations

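Single knockout cells held all the UMIs of some plasmacytoid dendritic cell markers. All 7 Siglech UMIs lay in 1 Xcr1-type cell and all 20 Cox6a2 UMIs in another cell, the one with 79 Gzma UMIs. No control gated cell held either gene. Fabp5, a fatty acid binding protein, had 105 UMIs in knockout and 8 in control gated cells (ratio 10.0, 4.90 to 23.8), of which 56 lay in 1 knockout cell. Runx2, a transcription factor known from plasmacytoid cells and bone, had 27 and 2 UMIs (10.3, 2.59 to 89.3), with 0.97 in all other kept cells. Of the 27 Runx2 UMIs, 12 lay in 1 knockout cell, the one with the 7 Siglech UMIs. Bst2, an interferon-induced membrane protein, had a ratio of 2.17 (1.48 to 3.22) with 0.81 in the other cells, whereas Ifi211, an interferon-inducible gene, had 0.52 (0.37 to 0.71) and 0.53.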
